A study of Caenorhabditis elegans with 80 samples.

Results

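The 30 N2 libraries named N2_1 to N2_30 are the largest set of repeats in the series, 30 of 80 libraries, and they share strain, age and culture conditions. They were chosen by library name alone, and what is described here is how far each gene's level spread between them. N2 is the standard wild-type laboratory strain of Caenorhabditis elegans. Hermaphrodites were kept at 20 °C on NGM plates with streptomycin and OP50-1 E. coli as food. The medium held FUDR, which blocks DNA synthesis and so keeps progeny from developing. Whole worms were collected at day 6 and their RNA was read as paired reads of 150 nucleotides. The same measure was also taken in 20 CF1038 libraries, which carry the daf-16 allele mu86 and were collected at day 6, and in the 6 day 6 N2 libraries of the time course. The labels do not say which libraries came from separate cultures, so the spread between libraries may be in part technical.

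Worms grown alike can still differ in the state of their tissues at the same age, and a whole-worm library sums over all tissues. The cuticle is built from collagens secreted by the hypodermis, many of them made in pulses around each molt of the larva. Yolk proteins, the vitellogenins, are made in the intestine and taken up by oocytes. Intestinal lipases, lysozymes, lectins and detoxification enzymes respond to food and microbes, whereas splicing, secretion and autophagy genes serve every cell.

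The libraries were close in depth, with 34717235 to 41169594 counts and 19376 to 20488 genes with a count. Ribosomal RNA took 0.215% to 2.16% of counts, highest in library 25. No 2 libraries were copies of each other: the most alike pair, libraries 6 and 7, still differed by a mean chi-square of 8.94 per gene, where counting noise gives 1. The first principal component held 50.9% of all variance, against 9.75% for the second, and it followed library number. Its scores had a median of 32.9 in libraries 1 to 10, -2.08 in libraries 11 to 20 and -41.7 in libraries 21 to 30. Libraries 1, 2, 3 and 5 had the highest scores and libraries 24 to 30 held 7 of the 8 lowest. Libraries 11 and 25 stood apart on the second component, at -30.5 and -31.0, and the next lowest was library 1 at -17.7. The labels give all libraries the same batch value, so library number cannot be tied to a named step.

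CPM is counts per 1000000 counts of the library, with each library total scaled by the TMM factor of edgeR. These factors ran from 0.922 to 1.10. The measure is the standard deviation (SD) over 30 libraries of log2 CPM. Relative spread is that SD divided by the usual SD of genes at the same mean level, read from a smooth trend over all genes. A value of 1 is typical for the level, genes at 2 or more are called variable here, and genes at 0.67 or less are called stable. Of 13194 genes with a mean of at least 1 CPM, 885 were variable, which is 6.71%, and 1833 were stable, which is 13.9%. These counts depend on the measure. With the square root of a gene's count dispersion over its trend as the relative spread, edgeR gave 443 variable and 5300 stable genes. DESeq2 gave 522 and 4597. The median SD was 0.26 on the log2 scale over all these genes, 0.79 in variable genes and 0.13 in stable genes. In a variable gene the highest library stood at a median of 7.64 times the lowest, against 1.49 times in a stable gene and 2.11 times over all genes. Counting error alone gives a median SD of 0.048 in stable genes, so even their spread was above the precision that the depth allows.

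Spread was larger in faint genes and changed little above 30 CPM. The median SD was 0.40 for genes with a mean of 1 to 3 CPM, 0.25 at 10 to 30 CPM and 0.20 at 100 to 300 CPM. Variable genes made up between 3.51% and 8.99% of the genes of each of 7 bands of level, and stable genes between 9.81% and 17.8%. At the threshold, atic-1 at 2.0049 and maph-1.1 at 2.0118 were just inside the variable genes, and lec-10 at 1.9977 and nlg-1 at 1.9990 just outside. On the low side nova-1 at 0.66972 and mrps-25 at 0.67 were just inside the stable genes, and lsy-12 at 0.67014 and pcs-1 at 0.67046 just outside.

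**Figure D1:**
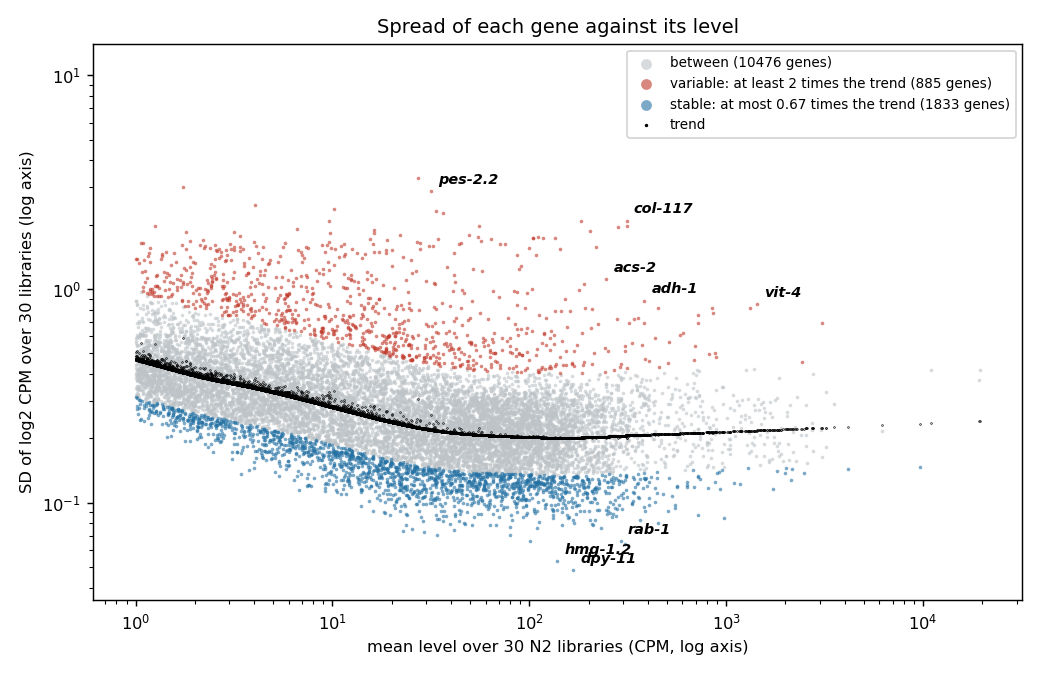
SD of log2 CPM over the 30 N2 libraries (vertical, log axis) against mean CPM (horizontal, log axis), 1 point per gene for 13194 genes, with the trend in black. The 885 variable genes lie at 2 or more times the trend, among them col-117 and pes-2.2, and the 1833 stable genes lie at 0.67 or less, with dpy-11 lowest.

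Differences between the 3 blocks of 10 library numbers held a median of 54.3% of a variable gene's variance, 11.4% of a stable gene's and 27.7% over all genes, where libraries in random order would give 6.90%. With the spread taken within blocks only, 653 genes were variable, 587 of them among the 885. Without libraries 24 to 30, 698 genes were variable and 626 of them were among the 885. The third component had steps elsewhere, however: its scores lay between -14.1 and -9.22 in libraries 1 to 8, between 7.63 and 30.01 in libraries 9 to 23 and between -18.8 and -5.96 in libraries 24 to 30. These stretches, chosen after the data were seen, held a median of 67.5% of a variable gene's variance and 30.6% over all genes. Within them 520 genes were variable, 444 of them among the 885, or 50.2%.

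Markers of the main tissues were present throughout. The 3 body wall muscle markers myo-3, unc-54 and unc-15 summed to between 528 and 1766 CPM, the 4 pharynx markers to between 109 and 544 CPM, and the 5 intestinal markers to between 11796 and 33124 CPM. The 4 neuronal markers summed to between 271 and 339 CPM, but most of that sum was snb-1, at a median of 265 CPM and a relative spread of 0.431. The marker unc-119 was also narrow, at a relative spread of 0.635, whereas rgef-1 and rab-3 were wider, at 1.68 and 1.60. The 8 oocyte and eggshell markers summed to between 5278 CPM in library 1 and 12488 CPM in library 14. The 4 hypodermal markers summed to between 493 and 1509.6 CPM. Most of this sum was col-19, at a median of 713 CPM, and most of the intestinal sum was vit-2, at 19465 CPM. The hypodermal sum was highest in library 26, where rol-6 was near its lowest. Relative spread was 2.33 in col-19, 7.29 in rol-6, 4.45 in dpy-7 and 1.14 in elt-3. Of 46 sperm markers only 6 reached a mean of 1 CPM, and all 46 summed to between 15.98 and 55.7 CPM. The 37 early embryo markers summed to between 177 and 288 CPM. In whole-worm RNA, fewer cells of a type and less RNA per cell cannot be told apart.

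Cuticle collagens were the most variable large list. Of 125 measured, 82 were variable and 1, col-68, was stable, with a median relative spread of 2.74. The widest was col-117 (WBcel235, chromosome IV, 8822962 to 8824195), which ranged from 11.0 CPM in library 25 to 1067 CPM in library 2, with a median of 229 CPM. Its SD was 2.09 and its relative spread 10.4. Libraries 24 to 30 were its 7 lowest, all at or below 31.7 CPM, and libraries 1 and 2 its highest. The related collagen col-147 ranged from 6.38 CPM in library 24 to 674 CPM in library 1, with a median of 125 CPM, and col-3 from 15.4 CPM in library 24 to 1024 CPM in library 1, with a median of 231 CPM. Both put libraries 24 to 30 lowest and libraries 1 and 2 highest, as col-117 did.

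The collagen genes dpy-13 and rol-6 put the same libraries lowest, whereas dpy-14 and dpy-17 belonged to the seventh cluster. Levels of dpy-13, whose loss makes worms short and fat, ran from 8.03 CPM in library 30 to 262 CPM in library 1, with a median of 89.2 CPM. Those of rol-6, whose mutants roll, ran from 3.81 CPM in library 27 to 115 CPM in library 12, with a median of 38.8 CPM, a relative spread of 7.29. Libraries 24 to 30 were again the 7 lowest for both genes, and libraries 1, 2 and 12 were among the highest. The 3 least variable collagens, col-68, col-132 and col-64, were also faint, at medians of 3.20, 1.09 and 1.74 CPM. The summed level of all cuticle collagens ranged from 13052 CPM in library 22 to 29351 CPM in library 20, a 2.25-fold range. In libraries 24 to 30, the 7 lowest for dpy-13 and rol-6, it ran from 15914 CPM in library 25 to 27351 CPM in library 28. The sum thus did not follow these 2 genes.

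Of the 885 variable genes, 797 fell into 9 clusters of at least 10 genes whose levels rose and fell together (average linkage at a Pearson r of 0.6), and 88 fell into none. The clusters were built from these same values, so their make-up is a description. The first held 477 genes with a mean r of 0.828 between members, 0.680 within blocks of 10 and 0.678 within the 3 stretches, and 64 of the 82 variable cuticle collagens. Its mean profile was 1.43 log2 units above its average in library 1 and at -1.44 in library 24. Within the stretches the mean r of the other clusters lay between 0.402 in the fourth and 0.867 in the eighth, with 0.449 in the ninth. The same 477 genes had a mean r of 0.777 among the CF1038 libraries, which played no part in building the clusters.

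**Figure D2:**
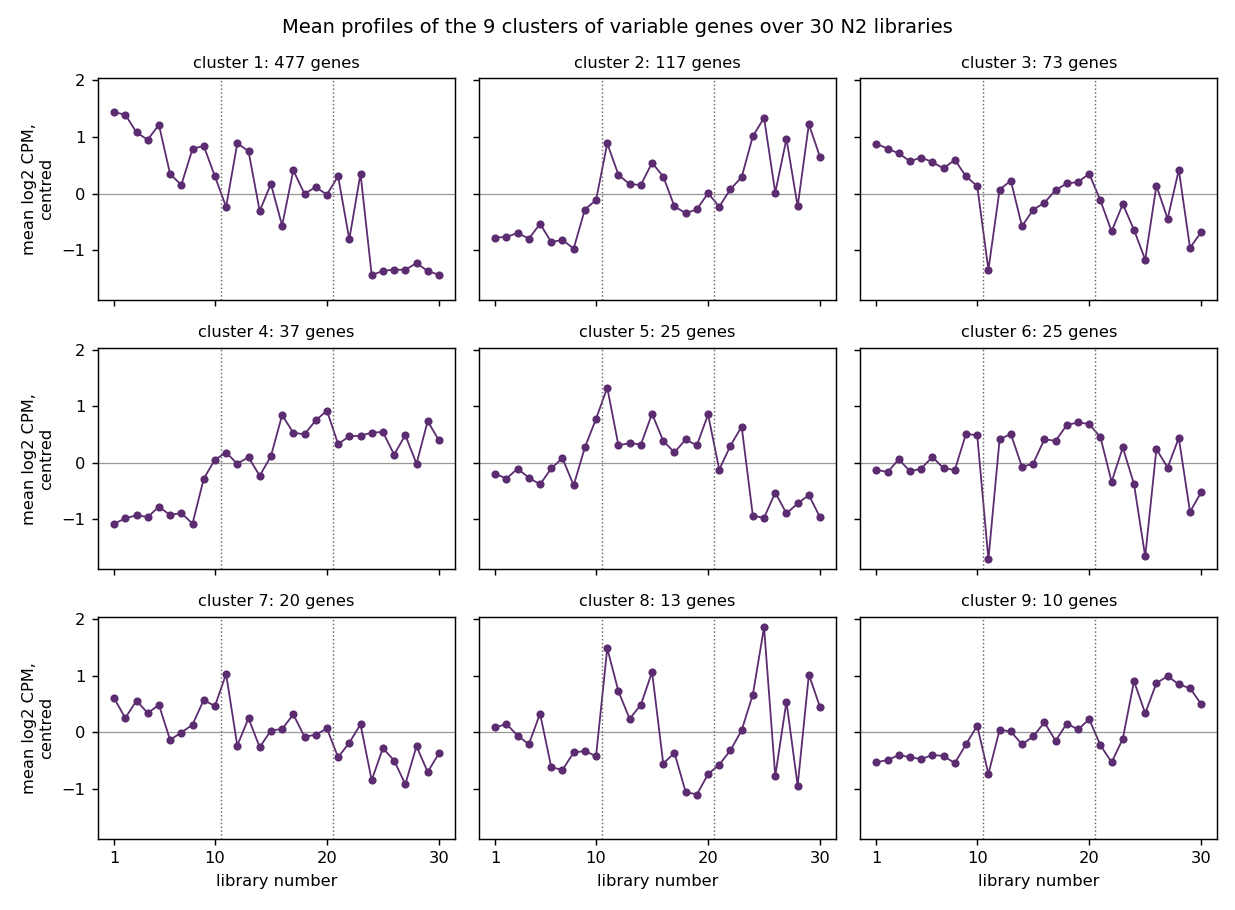
Mean centred log2 CPM (vertical) of the genes of each cluster in the 30 N2 libraries in order of library number (horizontal), with dotted lines after libraries 10 and 20. Cluster 1 steps down at libraries 24 to 30, clusters 2 and 4 are low in libraries 1 to 8, and libraries 11 and 25 are the extremes of clusters 6 and 8.

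Besides collagens, that cluster, which held 477 of the 885 variable genes, held molting, pharyngeal and muscle genes. Of 55 measured hypodermal genes 24 were variable, or 43.6%, against 6.71% of all genes. Of these 24, 20 belonged to that cluster. Among them mlt-11, a molting gene, ran from 7.99 CPM in library 29 to 93.7 CPM in library 12, with a median of 39.4 CPM. Of 76 pharyngeal genes 27 or 35.5% were variable, and all 27 belonged to that cluster. All 8 measured abu genes, which are mostly known from the pharyngeal cuticle, were variable, with a median relative spread of 3.34, the highest of 178 gene classes. The widest was abu-14, from 1.97 CPM in library 24 to 52.7 CPM in library 1, with a median of 16.7 CPM. Libraries 24 to 30 were the 7 lowest for abu-14, at no more than 3.06 CPM, and library 1 the highest.

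Of 46 muscle genes 13 or 28.3% were variable, against 6.71% of all genes. All 13 fell into the first cluster, which held 477 of the 885 variable genes. The pharyngeal list shares some of them, such as the pharyngeal myosins myo-1 and myo-2. The troponin I gene tni-1 had the highest correlation with the first component, r = 0.990 over the 30 libraries, among the genes named here, a description since the gene is part of that component. It ranged from 6.91 CPM in library 25 to 64.9 CPM in library 1, with a median of 19.2 CPM. The body wall myosin myo-3 ranged from 33.6 CPM in library 25 to 174 CPM in library 1, with a median of 68.6 CPM, and the titin-like ttn-1 from 15.3 CPM in library 25 to 76.1 CPM in library 1, with a median of 37.95 CPM. For myo-3 and ttn-1 library 25 was lowest and libraries 1, 2 and 5 highest, but other low libraries came from the middle of the series too, such as libraries 16 and 20. The nonmuscle myosin light chain mlc-5 had the narrowest spread of the list, 125.9 to 167 CPM, a relative spread of 0.575 that came to 0.726 by the median absolute deviation.

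The second cluster, the next largest, held no cuticle collagen. Its genes had a mean r of 0.809. Its mean profile had an r of -0.725 with that of the first. It took in 5 of the 8 variable lipases, 6 of 8 variable cytochromes P450, the cathepsins cpr-1, cpr-2 and cpr-4 and the metallothionein mtl-1, most of them genes of the intestine. The lysosomal lipase lipl-3 ranged from 1.42 CPM in library 7 to 34.1 CPM in library 25, with a median of 4.14 CPM, and lipl-1 from 9.69 CPM in library 4 to 102 CPM in library 25, with a median of 17.02 CPM. For both, library 25 stood above all others, and libraries 11, 24, 27 and 29 were among the next highest. Over the whole list of 18 lipases, 8 were variable and 2, atgl-1 and lips-1, were stable. The fat-droplet lipase atgl-1 stayed between 81.9 and 116 CPM, though within blocks its relative spread of 0.687 was just outside the stable range.

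In the same cluster mtl-1, which binds metals, ran from 20.4 CPM in library 4 to 212 CPM in library 29, with a median of 51.2 CPM, and the cytochrome P450 cyp-34A9 from 8.45 CPM in library 2 to 131 CPM in library 29, with a median of 29.5 CPM. Both had their 8 lowest values in libraries 1 to 8. The mitochondrial acyl-CoA synthetase acs-2, singled out after its values were seen, ranged from 66.7 CPM in library 28 to 925 CPM in library 25, with a median of 130.5 CPM, a relative spread of 5.53. In acs-2, a gene of fatty acid oxidation known to rise in fasted worms, libraries 25, 29, 24, 27 and 11 were highest and library 28 lowest. The food or feeding of these worms was not measured. The antioxidant list had 3 variable members of 25, and the catalases ctl-1 and ctl-2 among them belonged to this cluster. ctl-2 ranged from 78.2 CPM in library 8 to 291 CPM in library 25, with a median of 118 CPM.

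The third cluster, of 73 genes, ran against the second, with an r of -0.895 between mean profiles. It held gpdh-1, which makes glycerol when worms face high salt, and the small heat shock gene hsp-17. Levels of gpdh-1 ran from 5.70 CPM in library 25 to 71.9 CPM in library 6, with a median of 40.9 CPM, and those of hsp-17 from 23.3 CPM in library 11 to 94.8 CPM in library 28, with a median of 56.8 CPM. Libraries 11, 25 and 29 were the lowest for both genes. The cluster also held 9 collagens, among them col-93, col-94, col-159 and col-160. Of 15 osmotic response genes 4 were variable, and gpdh-2 was stable at 153 to 201 CPM.

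Vitellogenins split by gene. The members with fewer counts, vit-1, vit-3 and vit-4, were variable and formed part of a sixth cluster, whereas vit-2, vit-5 and vit-6, with more counts, were not called. Levels of vit-4 (WBcel235, chromosome X, 3558769 to 3563965) ranged from 168 CPM in library 25 to 2677 CPM in library 9, with a median of 1409.5 CPM, with a relative spread of 3.93. Those of vit-3, a close copy of vit-4 whose reads may be shared between the pair, ranged from 163 CPM in library 25 to 2378 CPM in library 9, with a median of 1415 CPM. Library 25 was far below the rest in both, libraries 29 and 11 came next, and library 9 was highest. Levels of vit-2 ranged from 11127 CPM in library 2 to 32601 CPM in library 24, with a median of 19465 CPM, and those of vit-6 from 11783 CPM in library 2 to 31074 CPM in library 24, with a median of 18930.0 CPM. These were lowest in libraries 1 and 2 and highest in library 24, an order unlike that of vit-4. The other members of the sixth cluster, 25 genes in all, included the infection response genes irg-6 and irg-8 and the galectin lec-9. Levels of irg-8 were lowest in library 11, at 49.8 CPM, and highest in library 9, at 286 CPM.

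The eighth cluster, of 13 genes, was the reverse of the sixth, with an r of -0.784 between profiles. It held the alcohol dehydrogenase adh-1, the glyoxylate cycle enzyme icl-1 and the fatty acid and retinol binding protein far-7. Levels of adh-1 ranged from 118 CPM in library 28 to 1129.7 CPM in library 25, with a median of 329 CPM, and those of icl-1 from 322 CPM in library 28 to 1378 CPM in library 11, with a median of 643 CPM. Libraries 11, 25 and 29 were highest for adh-1, and libraries 28, 18 and 19 lowest. Blocks of library number held a median of only 5.42% of the variance in this cluster and 9.77% in the sixth, against 60% in the first. Library 25 also had the highest share of ribosomal RNA, 2.16%, but library 11 had 0.328%. The part of RNA composition in these clusters was not tested.

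**Figure D3:**
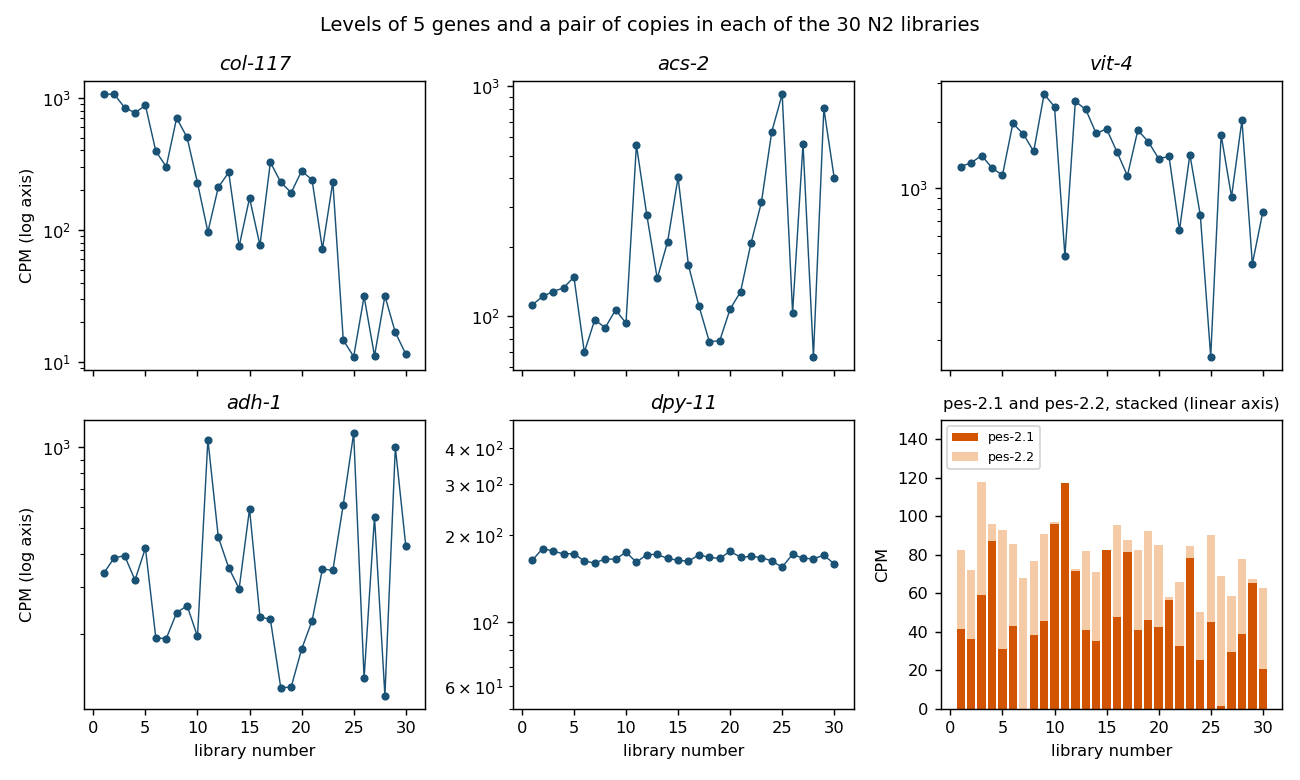
CPM of col-117, acs-2, vit-4, adh-1 and dpy-11 (log axes) and of the copies pes-2.1 and pes-2.2 (stacked bars, linear axis) in each of the 30 N2 libraries in order of library number. The collagen steps down at libraries 24 to 30, acs-2 and adh-1 are high in libraries 11, 25 and 29, where vit-4 is low, dpy-11 stays between 155 and 179.5 CPM, and the 2 copies trade counts.

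The fourth cluster, of 37 genes, held the invertebrate lysozymes ilys-2 and ilys-3, the insulin-like peptide ins-7 and the transthyretin-like genes ttr-45 and ttr-51. Levels of ilys-3 ranged from 3.73 CPM in library 4 to 93.1 CPM in library 25, with a median of 14.7 CPM, and those of ins-7 from 0.791 CPM in library 7 to 7.40 CPM in library 16, with a median of 4.11 CPM. Libraries 1 to 8 were the 8 lowest for ilys-3, ilys-2, ins-7 and ttr-45. By the median absolute deviation ins-7 stood at 1.70 and within blocks at 1.63, both below the threshold. The fifth, of 25 genes, held the epidermal antimicrobial peptides nlp-29, cnc-2 and cnc-7, the insulin-like peptide ins-19 and the uterine protein genes ule-1, ule-2 and ule-4. Levels of ule-4 ranged from 180.0 CPM in library 27 to 773 CPM in library 11, with a median of 272 CPM, and library 11 was also highest for ins-19.

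The seventh cluster, of 20 genes, included linker histones and the chromatin protein gene hmg-11. In it his-24 ranged from 173 CPM in library 27 to 858 CPM in library 11, with a median of 342 CPM, hil-3 from 54.4 CPM in library 27 to 266 CPM in library 11, with a median of 111 CPM, and hmg-11 from 86.8 CPM in library 24 to 316 CPM in library 11, with a median of 161 CPM. Library 11 was the highest for all 3 genes. Within blocks hmg-11 came to 1.96, just below the threshold. Of 32 measured histone genes 5 were variable. The ninth, of 10 genes, held 5 collagens that ran against the first cluster, with an r of -0.772 between profiles. Among them col-19, an adult collagen, ranged from 435 CPM in library 11 to 1475 CPM in library 26, with a median of 713 CPM, and col-129 from 8.67 CPM in library 11 to 50.2 CPM in library 27, with a median of 16.3 CPM. The 5 highest libraries for col-19 were libraries 24 and 26 to 29, all among the 7 in which col-117 was lowest.

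Some of the widest spreads belonged to single copies of near-identical genes, whose reads RSEM shares out by a model. The gene pes-2.2 had the largest relative spread of all genes named here, 11.2, and ranged from 0 CPM in library 11 to 67.7 CPM in library 7, with a median of 38.7 CPM. Its copy pes-2.1 ranged from 0.136 CPM in library 7 to 117.3 CPM in library 11, with a median of 42.7 CPM. In 17 libraries the pair had equal counts to within 1 count, and in 8 others at least 95% of the counts stood on 1 copy. Summed, the pair ranged only from 50.4 to 118 CPM with a median of 82.4 CPM, a relative spread of 1.39, below the threshold. The metal response pair numr-1 and numr-2 behaved likewise, at 6.24 and 7.55 apart and 1.59 summed.

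Other pairs stayed variable when summed. The heat shock genes hsp-16.48 and hsp-16.49 stood at 9.65 and 9.60 apart, and their sum ranged from 35.4 to 121 CPM with a median of 65.9 CPM, a relative spread of 2.27. The sum of pud-2.1 and pud-2.2 ranged from 51.7 to 257 CPM with a median of 91.7 CPM, at 3.07, and that of the lectins clec-13 and clec-15 from 2.04 to 56.4 CPM with a median of 15.5 CPM, at 5.87. Among 39 groups of coding genes that share a symbol in the annotation, 13 had a variable copy. The sum was variable in 7 groups, and 8 groups had a variable copy but no variable sum. Levels of single copies are uncertain in all these groups.

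In 2 more genes 1 library made the call. The regulator of G protein signalling rgs-8.1 had 0 counts in library 13 and a median of 11.2 CPM, and sdz-25 had 0 counts in library 15 with a median of 11.2 CPM. Each shares a symbol with a copy that held the counts in that library, and the summed pairs stood at 0.675 and 1.46. By the median absolute deviation, which such a library hardly moves, rgs-8.1 stood at 0.576 and sdz-25 at 1.45. In bcf-1 a few libraries decided, with a range from 151 CPM in library 11 to 872 CPM in library 12, with a median of 615 CPM and a relative spread of 2.88, against 1.203 by the median absolute deviation. Here libraries 11 and 25 stood lowest, as they did for irg-8 and vit-1.

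The lowest relative spread among genes with at least 10 CPM was 0.240 in dpy-11 (WBcel235, chromosome V, 6511583 to 6515240), which encodes a thioredoxin-like protein of the hypodermis. It ranged from 155 CPM in library 25 to 179.5 CPM in library 2, with a median of 167 CPM, an SD of 0.048. The next were hmg-1.2, an HMG-box chromatin protein, from 124 CPM in library 21 to 149 CPM in library 25, with a median of 138 CPM, and kin-19, a casein kinase, from 278 CPM in library 20 to 339 CPM in library 11, with a median of 305 CPM. The highest and lowest libraries differed between these 3 genes. The GTPase rab-1, which serves traffic from the endoplasmic reticulum to the Golgi, stayed between 265 and 325 CPM, and the sorting nexin snx-27 between 20.6 and 25.8 CPM. The others were cdf-1, mboa-6, gly-13, tag-250, mig-23, mrps-12, pfut-1, ari-1.1, gsp-1 and atg-7. Of the 15, all but mboa-6 were also stable in the CF1038 libraries, where mboa-6 stood at 0.678 just above the threshold.

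The name dpy covers both ends. Of 25 measured dpy genes 13 were variable, mostly cuticle collagens such as dpy-13, and 2 were stable, dpy-11 and dpy-30, which are no collagens. Of all gene classes the atg genes of autophagy had the lowest median, 0.667 for 12 genes, of which 6 were stable and 0 variable. The wider autophagy list of 27 genes, which includes them, had a median of 0.844, with 9 stable and 0 variable. The enzyme atg-7, which activates ubiquitin-like proteins, ranged from 73.4 CPM in library 5 to 92.6 CPM in library 22, with a median of 79.7 CPM. Next came 13 rbm genes for RNA-binding proteins at 0.671 and 11 rpb genes for RNA polymerase II subunits at 0.680. The rsp splicing factors stood at 0.685, the exos subunits of the exosome at 0.685 and the eif translation factors at 0.723. None of the members of these classes was variable. After abu, the highest class medians were col at 2.48, dpy at 2.18, the hedgehog-related grd genes at 2.12 and irg at 2.12.

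Among lists by function, the lowest medians belonged to chaperones and splicing. Chaperones of the endoplasmic reticulum and mitochondria had a median of 0.694, and 7 of 16 were stable. The disulfide isomerase pdi-3 stayed between 644 and 833 CPM, and xbp-1, a transcription factor of the unfolded protein response, between 345.8 and 431 CPM. The mitochondrial chaperone hsp-60 was the 1 variable member, from 87.1 CPM in library 25 to 256 CPM in library 22, with a median of 161 CPM, lowest in libraries 25, 29, 27 and 24. By the median absolute deviation it stood at 1.93. Cytosolic chaperones had a median of 0.728, with hsp-70 and the similar pair F44E5.4 and F44E5.5 as the 3 variable members. Small heat shock proteins were at the other end, with a median of 2.15 and 6 of 11 variable. Splicing genes stood at 0.750, with 16 of 49 stable and 0 variable.

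Genes in common use as references for quantitative PCR had a median of 0.769, with 3 of 11 stable: tba-1, cdc-42 and mdh-1. By the median absolute deviation cdc-42 stood at 0.741, outside the stable range, and with the size factors of DESeq2 it also left that range. This small GTPase gene stayed between 226 and 329.5 CPM, and the transporter gene pmp-3 between 76.8 and 121 CPM. The actin gene act-1 ranged from 312 CPM in library 25 to 611 CPM in library 8, with a median of 438 CPM, a relative spread of 1.18, and the calsequestrin gene csq-1 stood at 1.39. Nuclear hormone receptors were narrow as well, at a median of 0.791, with 1 variable gene, nhr-7, among 171. Synaptic and neuronal genes were wider, at a median of 1.47, with 2 of 29 variable and 4 stable. The lowest of them, snb-1 (synaptobrevin), was stable at 228 to 309 CPM. The highest, ida-1, a gene of dense core vesicles, ranged from 35.4 CPM in library 16 to 116 CPM in library 2, with a median of 57.7 CPM. Ribosomal protein genes had a median of 0.978, and rpl-39 was the only variable one of 80, from 134.6 CPM in library 22 to 733 CPM in library 15, with a median of 306 CPM.

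Subunits of the respiratory chain differed by genome. The 12 encoded by mitochondrial DNA had a median of 1.85 and 5 were variable, whereas the 45 nuclear ones had 0.801 and 0 variable. The summed mitochondrial level ranged from 3977 CPM in library 15 to 8069 CPM in library 25, with a median of 6069 CPM. The subunit gene ND6 was the widest, from 7.19 CPM in library 18 to 82.6 CPM in library 9, with a median of 37.8 CPM. Oocyte and germline genes had medians of 1.38 and 1.32 and no variable member. Among them puf-3 was lowest in library 1, at 263 CPM, and highest in library 14, at 749.8 CPM.

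**Figure D4:**
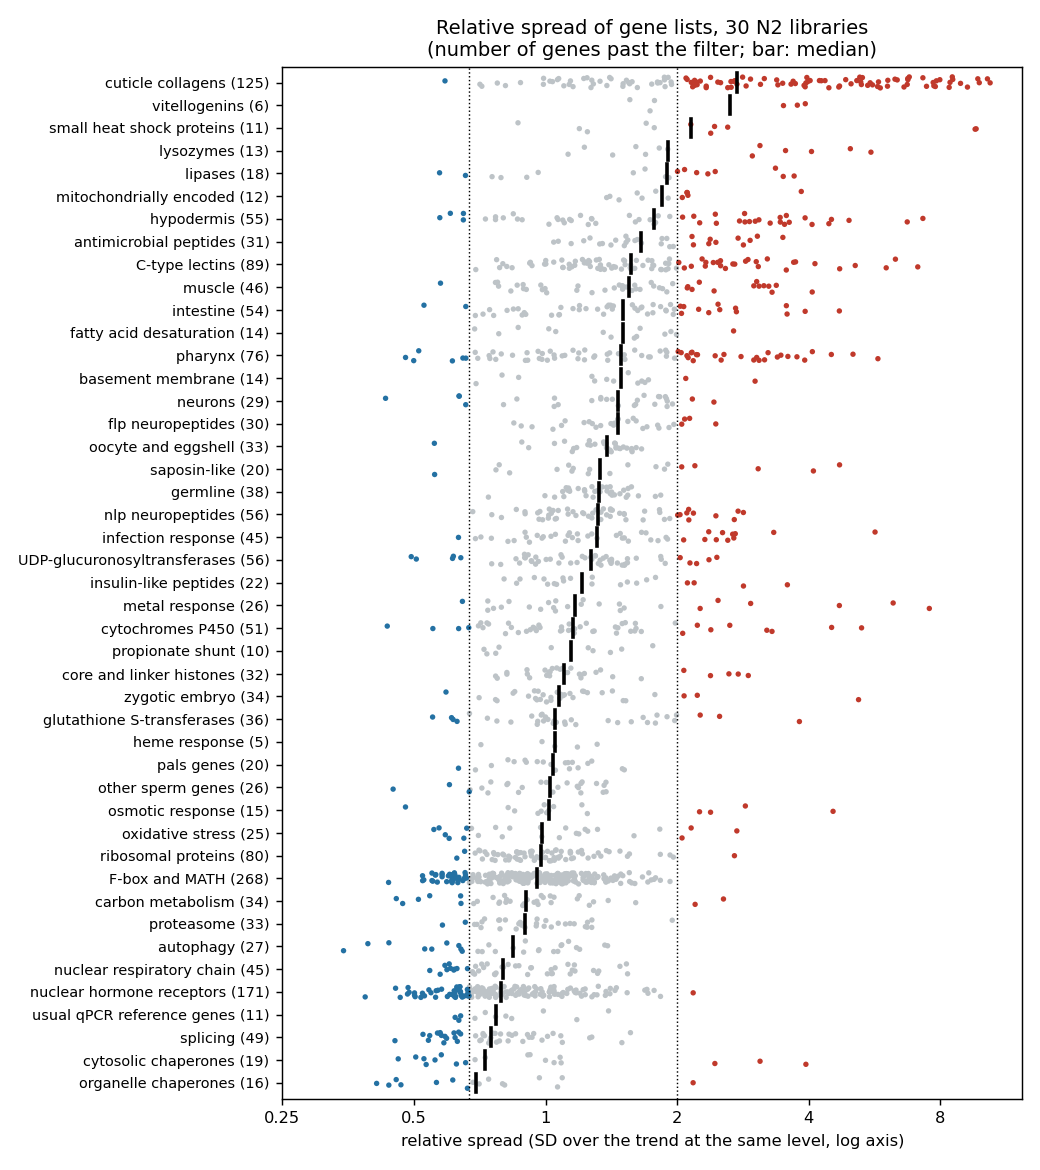
Relative spread (horizontal, log axis) of every gene past the filter in each list, 1 point per gene, with the list median as a bar and lists in order of median. Red points are variable and blue points stable genes, and dotted lines mark 0.67 and 2. Cuticle collagens lie highest and organelle chaperones lowest.

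Which families moved together was tested on the log2 of the summed CPM of 14 lists, 91 pairs in all, with a 2-sided permutation test of 100000 resamples and Benjamini-Hochberg adjustment over the pairs. By Pearson's r 28 pairs passed at 0.05, 16 positive and 12 negative, and by Spearman's rho 31 passed. After the mean of each block of library numbers was taken out, 14 passed, 12 of them among the 28. With the means of the 3 stretches taken out instead, 21 passed, 14 of them among the 28 with the same sign. Every permutation shuffled all libraries freely, also after block or stretch means were taken out, as if the libraries were independent. Levels followed library number, so the p-values may be too small. All sums are shares of library totals scaled by TMM, so an abundant list that rises can lower the others. Each sum took in every list gene with a count, and of 31 such major sperm protein genes only 2 reached a mean of 1 CPM. The lists were chosen with earlier results of these data known.

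The closest pair was C-type lectins and lysozymes, both families of secreted defence proteins. Pearson's r was 0.82 (adjusted p = 0.000303) and Spearman's rho 0.81 (adjusted p = 0.000455), both by permutation over 30 libraries. Without the 2 libraries farthest from the median r was 0.79, and r was 0.81 after the block means were taken out (adjusted p = 0.000455 by permutation). In the 3 stretches r was -0.036, 0.89 and 0.98 in libraries 1 to 8, 9 to 23 and 24 to 30, and it was 0.81 with the stretch means taken out (adjusted p = 0.000455 by permutation). The lectin sum ran from 5905 CPM in library 21 to 8022 CPM in library 27, and the lysozyme sum from 1655 CPM in library 7 to 3407 CPM in library 13. Most of the vitellogenin sum, 54836 CPM at the median, counted to vit-2, vit-5 and vit-6. The variable vit-1, vit-3 and vit-4 had medians of only 335, 1415 and 1409.5 CPM. The vitellogenin sum rose and fell with the lectins too, with r = 0.67 and rho = 0.69 (adjusted p = 0.00109 and 0.00078 by permutation). There r was 0.66 without the 2 farthest libraries and 0.60 within blocks, but 0.43 within stretches, where it did not pass (adjusted p = 0.0629 by permutation). The vitellogenin pair with cytochromes P450 had r = 0.68 (adjusted p = 0.00039 by permutation) and rho = 0.71 (adjusted p = 0.000455). It stood at 0.64 without the 2 farthest libraries. Within blocks it was 0.40 and within stretches 0.20, and neither passed (adjusted p = 0.11 and 0.434 by permutation).

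Oocyte and eggshell genes ran against antimicrobial peptides. Pearson's r was -0.70 (adjusted p = 0.000364) and Spearman's rho -0.80 (adjusted p = 0.000455), both by permutation over 30 libraries. Without the 2 farthest libraries r was -0.68, and r was -0.60 after the block means were taken out (adjusted p = 0.00572 by permutation). In the 3 stretches it was -0.75, -0.74 and 0.45 in libraries 1 to 8, 9 to 23 and 24 to 30, so the sign turned in the last. The oocyte sum was lowest in library 1, at 14376 CPM, and highest in library 22, at 28950.4 CPM, where the antimicrobial sum was lowest, at 283 CPM. They also ran against the pals genes of the intracellular infection response, with r = -0.69 and rho = -0.62 (adjusted p = 0.000364 and 0.00314 by permutation). There r was -0.61 without the 2 farthest libraries, and -0.94, -0.87 and -0.74 in libraries 1 to 8, 9 to 23 and 24 to 30. Oocyte genes and small heat shock proteins rose together, with r = 0.77 and rho = 0.75 (adjusted p = 0.000303 and 0.000455 by permutation), 0.68 without the 2 farthest libraries, 0.69 within blocks and 0.73 within stretches. Most of that small heat shock sum, 2184 CPM at the median, counted to sip-1, at 1734 CPM, and not the stress-inducible hsp-16 genes.

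Variable genes shared features that the measure did not use. On MtDNA 7 of 14 genes were variable. Among the nuclear chromosomes they were most frequent on chromosome V, with 257 of 2560 genes or 10.04%, and least frequent on chromosomes I and III, at 3.78% and 3.83%. On the X chromosome 8.32% were variable. Variable genes were shorter, with a median span of 1.83 kb against 2.54 kb over all genes, and stable genes spanned 2.58 kb. Of 882 variable genes with a position, 263 or 29.8% had a variable gene next to them among the genes measured, against 12.6% of all genes. The collagens col-117 and col-3 on chromosome IV are such a pair. Near-identical copies that share reads, such as pes-2.1 and pes-2.2 on chromosome I, were not taken out of these shares. For stable genes the share with a stable neighbour was 33.7% against 25.6%. Of 338 pseudogenes 6 were variable.

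Genes variable among the N2 libraries were mostly variable among the CF1038 libraries, measured with their own trend. Of 824 variable genes with a value there, 643 or 78.03% were variable again, where the share over all 12884 genes was 9.59%. These were 52.02% of the genes variable in CF1038. Of 1819 stable genes, 954 or 52.4% were stable again, against 13.9% of all genes, and they were 53.3% of those stable in CF1038. The Spearman rho between both relative spreads, taken across genes that are no independent replicates, was 0.76. Both strains share the library protocol and the annotation. The genes rgs-8.1 and Y6E2A.4 were variable among N2 and stable among CF1038 libraries, and ivns-1 was stable among N2 libraries, at 110.3 to 156 CPM, and variable among CF1038 libraries, at a relative spread of 2.19. These 3 were chosen after their values were seen, and the difference was not tested.

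**Figure D5:**
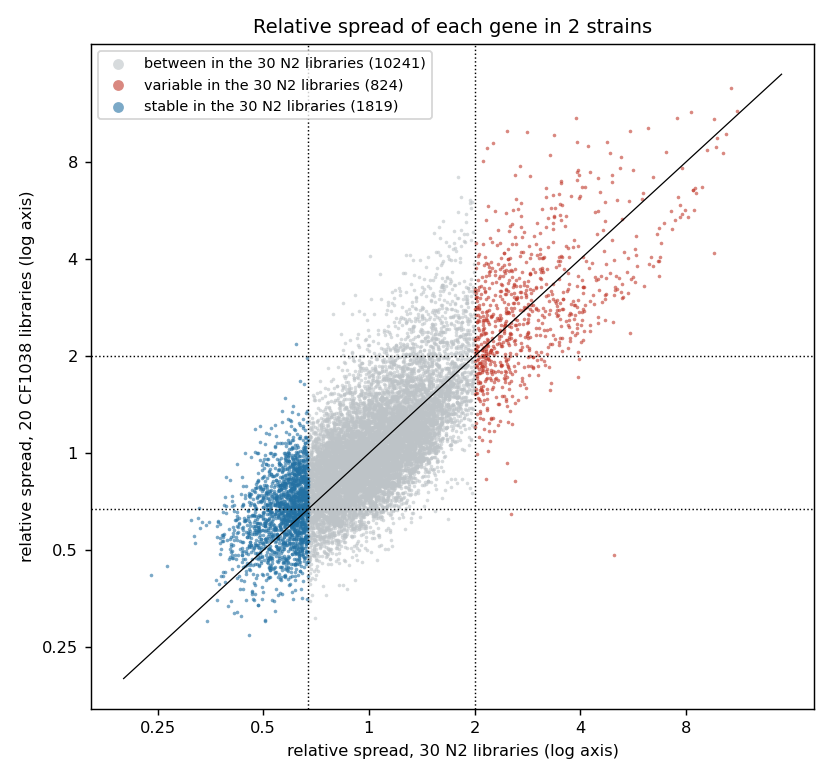
Relative spread of each gene among the 20 CF1038 libraries (vertical, log axis) against the 30 N2 libraries (horizontal, log axis), 1 point per gene, coloured by the call in the N2 libraries, with the line of equal values and dotted lines at 0.67 and 2. Most variable genes lie above 2 on both axes, and col-117 and pes-2.2 lie near the upper right.

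Several families spread further in CF1038 than in N2 relative to their trends and others less, without a test of the difference. Over all genes, 9.59% were variable in CF1038 and 6.71% in N2. Vitellogenins had a median of 2.64 among N2 libraries and 4.04 among CF1038 libraries, and cuticle collagens 2.74 and 3.17. The vitellogenins split by gene here too. Relative spread was larger in CF1038 for vit-1, vit-3, vit-4 and vit-5, as in vit-4 at 3.9268 and 7.053. It was smaller there for the abundant vit-2, at 1.7341 and 1.497, and vit-6, at 1.5591 and 1.4695. For the eighth cluster, with adh-1, the medians were 2.51 and 4.89. The genes of the seventh cluster, with linker histones, went the other way, at 2.24 and 1.67, and 5 of 20 were variable in CF1038. Those of the first cluster stood at 2.72 and 2.41. Every cluster member had to reach 2 in N2 but not in CF1038. A lower cluster median in CF1038 can come from that choice alone, so it does not show a difference between strains. The medians of oocyte and eggshell genes, at 1.38 and 0.976, and of germline genes, at 1.32 and 1.05, were also lower in CF1038. The correlations within clusters were of like size in CF1038 for most, with a mean r of 0.804 in the sixth and 0.798 in the eighth, and lowest at 0.479 in the ninth and 0.496 in the fourth. The medians of chaperone and splicing lists were low in both strains, as for splicing genes at 0.750 and 0.811.

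In the 6 day 6 N2 libraries of the time course the overlap was smaller. Of 744 variable genes with a value there, 431 or 57.9% were variable, where the share over 12573 genes was 10.4%, and they were 33.03% of the genes variable there. The rho across genes was 0.46. An SD over 6 libraries is itself less precise than an SD over 30. Of 3 collagens named above, col-117 stood there at a relative spread of 7.47, col-3 at 8.76 and col-19 at 1.60, and dpy-11 was again low at 0.353.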

How the data were processed

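Whole-worm RNA was measured in the 30 N2 libraries. The deposited values are expected counts per gene, made by the authors with STAR 2.7.11b and RSEM 1.3.3 on WBcel235, per the submitters' processing notes. RSEM shares reads that match several genes, so copies of near-identical genes are uncertain. Which kit was used, and whether it kept strand, is not given in the sources used here. Expected counts were rounded to whole numbers (2.80% were not whole). Symbols and positions came from the WBcel235 annotation.

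CPM were scaled by TMM in edgeR 4.0.16 (R 4.3.3) with a prior count of 2. For genes with a mean of at least 1 CPM, the SD of log2 CPM was divided by a loess trend (span 0.3) of log2 SD on mean log2 CPM. The method was run on simulated counts of independent genes. That run held no steps between libraries and no shared reads, so it does not cover these. Totals were 34717235 to 41169594 counts per library, which makes counting error small for all but the faintest genes. Clusters, components and correlations were computed in R and in Python 3.11.15 with scipy 1.17.1. Correlation p-values came from 100000 permutations and were adjusted by Benjamini-Hochberg over 91 pairs, and the smallest p that these permutations can give is 1e-05. Other settings are listed in the closing section.

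The genes named were, among those with a mean of at least 10 CPM, the 15 largest spreads that also held by the median absolute deviation, the 15 smallest, the 5 decided most by few libraries, up to 3 members at each end of each list, the 5 most central genes of each cluster and the extremes of gene classes. Some genes were chosen after their values were seen, among them acs-2, ins-7, lipl-3, ND6, pmp-3, ivns-1, Y6E2A.4, nhr-7, the faint collagens and further cluster members. The libraries, the lists and these rules were chosen with earlier results of these data known.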

Additional observations from a re-analysis of the deposited data

How the results depend on the processing

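No test lies behind the calls of variable and stable genes, so their limits are the thresholds. No paired analysis was possible because no result comes from a test between groups: the CF1038 and time course libraries stand beside the 30 N2 libraries as descriptions. Genes were also called by the square root of the ratio of a count dispersion to its own trend, in place of the SD. This gave 443 variable and 5300 stable genes with edgeR, and 522 variable and 4597 stable genes with DESeq2 1.42.0. With edgeR 441 of the 443 were among the 885, and with DESeq2 all 522. With any gene that had a count, 2787 genes were stable and 1000 variable. The other settings stayed within 1.5 times of the 885 and 1833: size factors of DESeq2 gave 847 and 1759, library totals alone 983 and 1878, and the median absolute deviation 1017 and 2230. Without 1 library at a time there were 835 (without library 25) to 912 (without library 1) variable genes and 1726 to 1897 stable genes, and 93.1% to 99.2% of the 885 stayed variable. The first component then held 48.5% to 53.5% of variance. Chosen after seeing the data, the spread within libraries 1 to 8, 9 to 23 and 24 to 30 gave 520 variable genes, 444 of them among the 885. The 520 lay outside the range of 1.5 times. These stretches also gave 1394 stable genes, and 21 pairs of lists passed there. Leaving out libraries 11 and 25 gave 841 variable genes, leaving out libraries 1 to 5 gave 914, and summing copies that share a symbol gave 872. Within blocks of library number 14 pairs of lists passed in place of 28. Of 304 genes named by rule, 264 had the same call within blocks and 266 by the median absolute deviation. The cause of these changes was not tested. Depth limits the faint genes most: genes under 1 CPM were left out of the calls but not of the list sums. A single library at 0 can make a call.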
